A study of Mus musculus with 3 samples.

Results

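The stretch of each mouse autosome next to its centromere was examined in ATRX ChIP-seq peak lists of cultured neurons. Its members are the peaks of chromosomes 1 to 19 that end at or before position 5000000. No autosomal peak of either list starts before position 3000017, so they fill a span of 2 Mb per autosome, from 3 to 5 Mb, or 38 Mb in all. The control list of 112153 peaks has 1485 of them (1.32%) and the MICAL1-FL list of 105674 has 1361 (1.29%), together 2846 of 217827. Among control peaks the last member ended at 4999787 and among MICAL1-FL peaks at 4999825, the next peaks outside ended at 5001184 and 5000971, and no peak crossed the limit. Both sets of neurons came from C57BL6/J embryos of E15.5 to E17.5, were infected with lentivirus on day 5 and are labelled day 14 in vitro. The control received mCherry, a fluorescent protein, and the other MICAL1-FL, a form of the actin-oxidising enzyme MICAL1. Each condition has 1 ChIP library, which leaves every difference between them without a replicate check, and none was tested. In the MICAL1-FL list peaks are named with the prefix TBC_M2, which the labels do not explain, so every MICAL1-FL value rests on the sample's title. The sources used here do not name the promoter that drives either construct, and peak lists hold no expression values by which to check the neuronal label.

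ATRX is a chromatin remodelling ATPase that, with the histone chaperone DAXX, places the variant histone H3.3 into heterochromatin, and it is known to gather on the pericentromeric heterochromatin of mouse nuclei. Mouse autosomes have their centromere at one end. The blocks of major satellite repeat that make up their pericentromeres are largely missing from genome assemblies. The peaks described here lie in the first assembled sequence of each autosome, and how much satellite that sequence holds was not examined.

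Promoters in the span are shown first, because they are the places where a peak can be set beside known sequence. RefSeq (GRCm38.p6) holds 619 promoter windows within the span, belonging to 476 genes, each with 250 bases before and 50 after a gene start. The labels name no build, and GRCm38 was inferred from scaffold names and from the gathering of peaks at these windows. Over the autosomes 3007 windows held a control peak, where windows shifted by 5 kb held 1028 on average. In the MICAL1-FL list these numbers were 3049 and 863.5. Of the 619 windows in the span, 47 (7.59%) were overlapped by a control peak and 54 (8.72%) by a MICAL1-FL peak, where 9.58% and 9.71% of all autosomal windows were. Both lists had a peak at 8 windows (1.29%, against 2.05% elsewhere on the autosomes). The 5 of these that belong to genes with a symbol other than a clone or predicted name are printed, each on its own strand from 5′ to 3′, with runs of at least 4 G or 4 C in capitals.
Akap9, chr5:3927936-3928235, plus strand: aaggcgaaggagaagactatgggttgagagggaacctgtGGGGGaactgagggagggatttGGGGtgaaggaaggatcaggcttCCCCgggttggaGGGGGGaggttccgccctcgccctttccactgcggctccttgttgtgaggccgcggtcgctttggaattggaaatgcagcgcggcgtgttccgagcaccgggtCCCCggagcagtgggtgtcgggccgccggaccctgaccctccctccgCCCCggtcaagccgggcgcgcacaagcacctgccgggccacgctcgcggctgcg
Tug1, chr11:3648765-3649064, minus strand: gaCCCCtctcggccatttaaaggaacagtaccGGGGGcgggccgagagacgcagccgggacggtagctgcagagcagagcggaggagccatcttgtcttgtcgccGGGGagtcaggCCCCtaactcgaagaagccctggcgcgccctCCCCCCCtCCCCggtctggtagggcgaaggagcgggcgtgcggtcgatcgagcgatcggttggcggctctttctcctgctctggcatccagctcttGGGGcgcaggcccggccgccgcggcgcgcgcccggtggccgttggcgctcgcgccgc
Mtfp1, chr11:4095382-4095681, minus strand: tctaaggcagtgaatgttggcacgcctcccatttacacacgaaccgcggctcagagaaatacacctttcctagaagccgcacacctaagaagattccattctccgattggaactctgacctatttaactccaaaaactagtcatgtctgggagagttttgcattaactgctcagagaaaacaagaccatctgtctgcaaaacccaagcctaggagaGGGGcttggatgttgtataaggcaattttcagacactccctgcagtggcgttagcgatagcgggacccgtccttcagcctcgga
Ccdc157, chr11:4160244-4160543, minus strand: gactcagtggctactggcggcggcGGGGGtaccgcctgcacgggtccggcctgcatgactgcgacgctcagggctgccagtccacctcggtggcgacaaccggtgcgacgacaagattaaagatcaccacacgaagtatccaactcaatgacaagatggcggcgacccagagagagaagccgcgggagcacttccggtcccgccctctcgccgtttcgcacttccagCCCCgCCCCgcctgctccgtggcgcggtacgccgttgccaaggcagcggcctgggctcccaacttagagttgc
Adcy3, chr12:4133903-4134202, plus strand: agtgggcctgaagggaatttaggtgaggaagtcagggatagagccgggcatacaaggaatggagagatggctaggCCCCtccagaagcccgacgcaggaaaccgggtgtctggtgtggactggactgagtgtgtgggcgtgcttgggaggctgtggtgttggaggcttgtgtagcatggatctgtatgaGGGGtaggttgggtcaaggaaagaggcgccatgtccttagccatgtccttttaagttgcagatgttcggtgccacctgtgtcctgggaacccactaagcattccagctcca

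Among these promoters only that of Akap9 had a peak with q under 0.05. Akap9 encodes an anchor of protein kinase A at the centrosome and Golgi. Its peak was 8 fragments deep in the control, with a fold over background of 3.43 and q = 0.705. In MICAL1-FL it was 12 fragments deep, with a fold of 4.45 and q = 0.00322. The window has 27 CpG and 67.7% G + C. At Ccdc157 the peaks were 9 and 8 fragments deep in control and MICAL1-FL, and the MICAL1-FL peak also reached the promoter of the splicing factor gene Sf3a1. Tug1, a long noncoding RNA gene, had 7 fragments in both lists and the highest CpG number of the 5, at 37. Mtfp1, a mitochondrial fission gene, and Adcy3, the adenylyl cyclase of neuronal cilia, had 7 in the control and 5 in MICAL1-FL each. All these depths but those of Akap9 and Ccdc157 had q = 1 in both lists, and most peaks of the span are of this shallow kind.

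Promoters with a peak were rich in CpG. The median number of CpG was 29 in the 8 windows with a peak in both lists, 22 in the 93 with a peak in either and 7 in the 526 with none. Elsewhere on the autosomes these medians were 20 with a peak in either list and 6 with none, so the span followed the same order. Median G + C in the span was 63.7% with a peak in either list and 52.8% with none. The letters GGGG, sought on both strands, stood in 97.8% of windows with a peak in either list, in 88.0% of those with none and in 86.9% of all autosomal windows. Elsewhere on the autosomes they stood in 94.9% of windows with a peak in either list and in 85.2% of those with none. The telomeric letters TTAGGG, sought on both strands, stood in 4 of the 93 windows with a peak in either list (4.30%), a small number. Elsewhere 9.50% of windows with a peak in either list held these letters, and 10.6% of all autosomal windows did. Of the printed windows, Tug1 holds them. Such matches describe the windows and are not binding sites.

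The span held fewer peaks per Mb than the rest of the same chromosomes in both lists. Control peaks numbered 39.1 per Mb in the span and 46.0 per Mb in the rest, a ratio of 0.850 (0.807 to 0.895). MICAL1-FL peaks numbered 35.8 per Mb and 43.5 per Mb, a ratio of 0.823 (0.779 to 0.868). Intervals here and below are exact 95% intervals that cover counting error only. With length counted from the first peak of either list the ratios were 0.874 and 0.846. Assembly gaps and repeats, on which reads may not be placed, were not examined, so their part in the lower density was not tested. In a bulk culture, fewer cells with ATRX at a site and less ATRX per cell cannot be told apart.

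Fewer peaks were counted on most autosomes, but not on all. The interval of the ratio lay below 1 on 9 autosomes in the control, where 26.9% of 1173 windows of 2 Mb along the autosomes did so, and on 8 in MICAL1-FL, where 23.3% did. The 8 autosomes 3, 6, 7, 8, 13, 14, 15 and 16 were lower in both lists, where 17.3% of windows were. Chromosome 19 was lower in the control alone. Chromosome 13 had the lowest ratio, 0.588 (0.447 to 0.760) in the control and 0.476 (0.345 to 0.639) in MICAL1-FL, from 59 and 44 peaks in its 2 Mb. Of its 57 other windows, 4 held fewer control peaks and 3 fewer MICAL1-FL peaks. Chromosomes 16 and 6 came next in the control, at 0.609 and 0.635, with MICAL1-FL ratios of 0.650 and 0.535. On chromosome 16, 2 of 46 windows held fewer peaks in each list.

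At the other end stood chromosomes 2, 9 and 18. Chromosome 2 had 116 control peaks, a ratio of 1.29 (1.07 to 1.55), but 88 in MICAL1-FL, a ratio of 1.01. Chromosome 9 had ratios of 1.12 and 0.988, and chromosome 18 of 1.10 and 0.985. In MICAL1-FL the highest ratio was that of chromosome 17, 1.31 (1.08 to 1.59) from 110 peaks, against 1.03 from 98 in the control. A single autosome per list had an interval above 1, where 24.6% of windows in the control and 22.8% in MICAL1-FL had one. No autosome was higher in both lists, where 16.3% of windows were. Across the 19 autosomes the log2 ratios of the lists went together, with Pearson's r of 0.83 and Spearman's rho of 0.865 for the ratios. This is a description, since both lists share the same chromosomes and their sequence.

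**Figure D1:**
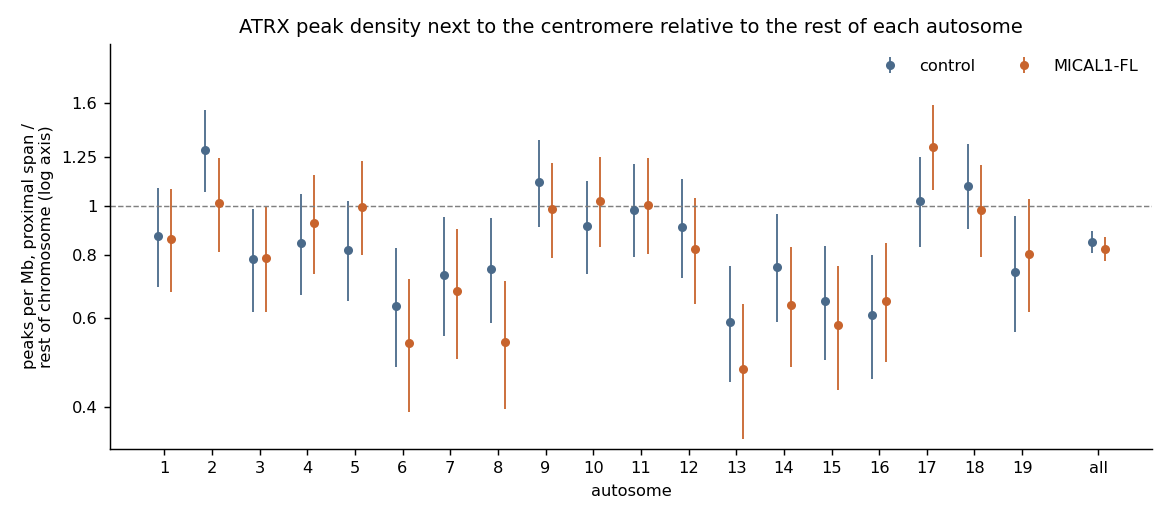
The plot shows, for each autosome and for all together, peaks per Mb in the 2 Mb next to the centromere divided by peaks per Mb in the rest of the chromosome, on a log axis. Points are single libraries and bars exact 95% counting intervals; both lists lie below 1 on most autosomes, lowest on chromosome 13 at 0.588 and 0.476.

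Peak density was below that of the rest in every step of the span. In steps of 500 kb from 3 Mb, summed over autosomes, control peaks numbered 36.0, 37.6, 39.8 and 42.9 per Mb. The step beyond the 5 Mb limit had 47.1 per Mb, against 46.0 in the rest of the autosomes. In MICAL1-FL the steps had 34.6, 35.9, 34.2 and 38.5 per Mb, and the next one 43.5. Single steps further out were nearly as low, such as 36.3 per Mb in the control between 7.5 and 8 Mb.

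MICAL1-FL had fewer peaks than the control in the span, as it had elsewhere. The ratio of peak numbers, MICAL1-FL to control, was 0.916 (0.851 to 0.987) in the span and 0.947 (0.939 to 0.955) in the rest. The first divided by the second was 0.967 (0.898 to 1.04), an interval that includes 1. The same was so on each of the 19 autosomes taken singly, where 4.01% of 2 Mb windows fell below the ratio of their chromosome and 4.26% above it. For peaks in general, a difference between conditions that is particular to the span was not detectable at this depth.

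Most of these peaks were shallow. Depth, in ChIP fragments under the summit, was recovered from the authors' fold and p-values, with 99.9% or more of peaks coming out within 0.05 of a whole number. The median was 5 fragments in the span and in the rest of the autosomes in both lists, and median width was 336 and 335 bp in the control and 339 and 332 bp in MICAL1-FL. The median fold over background was 2.29 in the span in both lists. At most 6 fragments stood under 79.7% of control and 81.3% of MICAL1-FL peaks in the span. By these medians a typical peak next to the centromere was like one elsewhere.

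The exception was a small group of strong peaks, which made up a larger share of peaks in the span than elsewhere. Peaks with q under 0.05 numbered 37 in the control (2.49%, 1.76 to 3.42), where 0.35% of all autosomal peaks passed, and 57 in MICAL1-FL (4.19%, 3.19 to 5.39), where 0.295% passed. In the rest of the autosomes the shares were 0.321% and 0.244%. At q of 0.001 or less the span held 31 and 37 peaks, with backgrounds of 0.103% and 0.104%. Peaks of 9 or more fragments numbered 95 (6.40%) and 105 (7.71%), with backgrounds of 1.87% and 1.45%. Peaks of 800 bp or wider numbered 58 (3.91%) and 70 (5.14%), with backgrounds of 2.46% and 2.14%. The opposite ends of the autosomes, their last 2 Mb, had 23 of 1686 control peaks (1.36%) and 16 of 1667 MICAL1-FL peaks (0.960%) with q under 0.05. With chromosome 9 left out, the span had 0.868% (0.449 to 1.51) in the control, not above these ends. In MICAL1-FL it had 3.22% (2.32 to 4.34).

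Chromosome 9 held 25 of the 37 strong control peaks and 16 of the 57 of MICAL1-FL. All of these lay between 3000017 and 3038304, of which the peaks covered 67.4% in the control and 82.4% in MICAL1-FL. Each overlapped a strong peak of the other list, and the MICAL1-FL peak at 3011591 to 3017273 took in 4 control peaks. The larger number in the control is therefore of the same cluster called in more pieces. The strongest spanned 3000030 to 3002393 in the control, with 6339 fragments and a fold of 3.80. In MICAL1-FL it spanned 3000017 to 3004869, with 6542 fragments and a fold of 5.74. The median local background of the strong peaks of this cluster was 439 fragments in the control and 339 in MICAL1-FL. The lowest background in each list was 1.62. Beyond this cluster chromosome 9 looked like the other autosomes in the span. Its remaining 78 control and 72 MICAL1-FL peaks reached at most 11 and 13 fragments, and none had q under 0.05. The number and place of strong peaks are therefore also given without chromosome 9.

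Strong peaks were more numerous in MICAL1-FL than in the control, the reverse of the rest of the autosomes. By how much depended on chromosome 9, where the same cluster was called as more peaks in the control. With that chromosome the ratio of 57 to 37 was 1.54 (1.001 to 2.40), or 2.14 (1.34 to 3.44) relative to the rest. At q of 0.001 or less, 37 and 31 gave 1.19 (0.721 to 1.99), against 0.866 in the rest. At p of 1e-06 or less, 49 and 36 gave 1.36 (0.867 to 2.15), against 0.654 in the rest. Both of these proximal intervals include 1. Without chromosome 9 the difference was larger. Of 1382 control peaks 12 had q under 0.05 (0.868%, 0.449 to 1.51), and of 1273 MICAL1-FL peaks 41 had (3.22%, 2.32 to 4.34). Their ratio was 3.42 (1.76 to 7.14), where the rest of the autosomes had 238 and 335, a ratio of 0.710 (0.599 to 0.841). The first divided by the second was 4.81 (2.41 to 10.2). These intervals treat each peak as an independent count. Many strong peaks lie close together, so the intervals are too narrow. At a common p of 1e-06 or less, which does not depend on each list's own q, there were 33 and 11, a ratio with an interval of 1.48 to 6.58, against 0.644 in the rest. Counted by depth alone the gap was smaller. Peaks of 9 or more fragments numbered 88 in MICAL1-FL and 67 in the control, a ratio of 1.31 (0.945 to 1.83), against 0.707 in the rest.

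The difference was uneven among autosomes. Chromosome 11 had 5 strong peaks in the control and 14 in MICAL1-FL, chromosome 17 had 1 and 9, and chromosome 4 had 1 and 7. Chromosome 16 had 2 and 4, chromosome 18 had 1 and 2, and chromosome 13 had 0 and 2. Chromosomes 5 and 10 had 1 each in MICAL1-FL alone, chromosome 7 had 1 in the control alone, and chromosome 6 had 1 in each. Of the 18 autosomes other than 9, MICAL1-FL had more on 8 and the control on 1, 1 was equal and 8 had none.

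**Figure D2:**
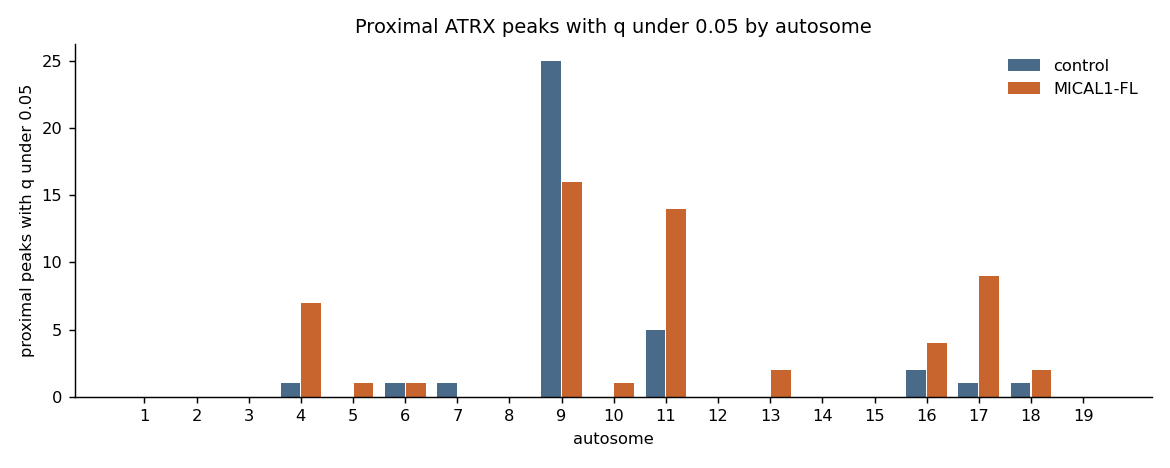
Bars count, for each autosome, the peaks with q under 0.05 in the 2 Mb next to the centromere, from 1 library per condition. Chromosome 9 has more in the control (25 against 16), all of them in a single cluster and overlapping strong peaks of the other list. Chromosomes 4, 11 and 17 have more in MICAL1-FL (7, 14 and 9 against 1, 5 and 1).

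The strong peaks crowded against the start of the assembled sequence. Within 200 kb of 3 Mb lay 9 of the 12 in the control and 33 of the 41 in MICAL1-FL, and within 400 kb lay 10 and 38. In the first 500 kb, again without chromosome 9, 3.26% of control and 12.5% of MICAL1-FL peaks had q under 0.05. From there to 5 Mb, on all autosomes, the shares were 0.175% (0.0212 to 0.631) and 0.291% (0.0600 to 0.847), with intervals that include the backgrounds of 0.35% and 0.295%. The local background that the peak caller used moved with them. More than 5 fragments of local background stood under 11.4% of control and 11.8% of MICAL1-FL peaks in the first 500 kb without chromosome 9, where 0.23% and 0.194% of all autosomal peaks had that many. Of the strong peaks themselves, 10 of the 12 in the control and 25 of the 41 in MICAL1-FL had over 5 background fragments, against 21.2% and 23.1% of strong peaks in the rest. The other 2 and 16 had 5 or fewer, and 1 and 5 had under 2. The part of the background in the strong peaks was not tested.

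**Figure D3:**
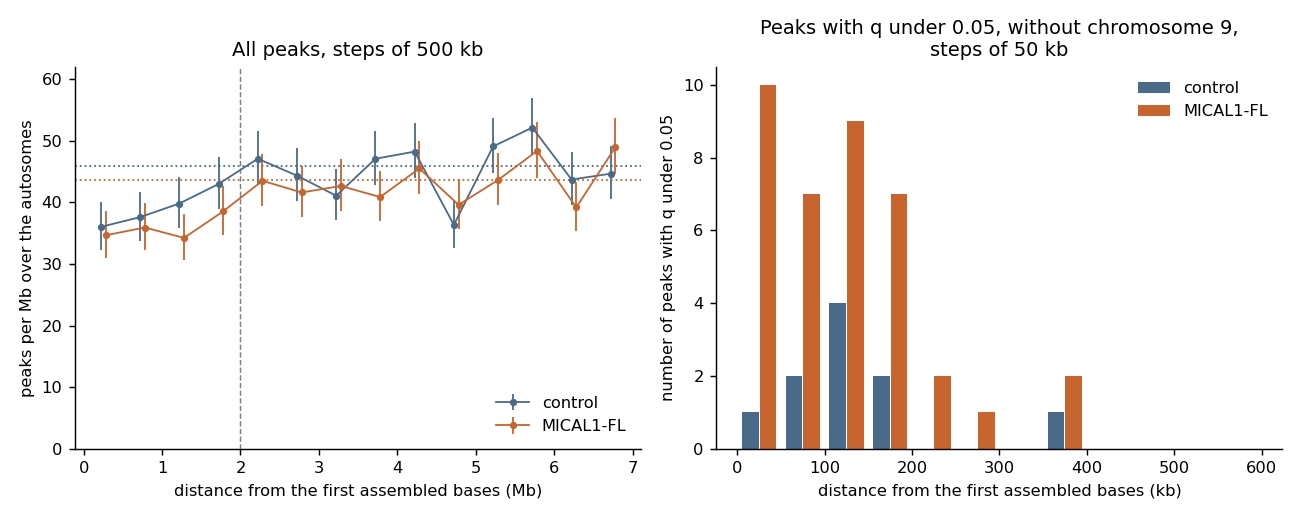
Left, peaks per Mb summed over the autosomes in steps of 500 kb from the first assembled bases, with exact 95% counting intervals and the limit of the rule as a dashed line; the first control step has 36.0 per Mb and the first beyond the limit 47.1. Right, the number of peaks with q under 0.05 in steps of 50 kb without chromosome 9; most lie in the first 200 kb, 33 of 41 in MICAL1-FL.

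The largest stretch of strong peaks outside chromosome 9 lay on chromosome 11, from 3101096 to 3200073, over the pseudogene Pisd-ps1 and the gene Sfi1, which encodes a centrin-binding protein of the centrosome. It held 18 control and 26 MICAL1-FL peaks, of which 5 and 14 had q under 0.05, and they covered 15.0% and 30.3% of it. The median depth of its peaks was 43 fragments in the control and 18.5 in MICAL1-FL, over sets of peaks that overlap only in part. At its left end the control peak at 3101148 was 70 deep over a background of 23.1, and the MICAL1-FL peak at 3101096 was 53 deep over 20.3. Next to it the peak at 3103736 to 3104118 was 88 deep in the control over a background of 48.6, and that at 3103788 to 3104158 was 86 deep in MICAL1-FL over 26.9. At both places depth and background were lower in MICAL1-FL, by different amounts. At its right end a MICAL1-FL peak from 3188786 to 3200073, 11288 bp wide and 58 deep, took in 6 separate control peaks, the deepest with 111 fragments. Sfi1 with 5 kb on both sides had 15 control and 23 MICAL1-FL peaks, or 18.4 and 28.2 per 100 kb, and 2 and 10 strong ones. Reads from near-identical copies such as Pisd-ps1 and its parent gene may be placed on either, and how they were treated is not stated in the labels.

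Shorter stretches on chromosomes 4 and 17 also held more peaks in MICAL1-FL, with a lower median depth. Their limits are edges of strong MICAL1-FL peaks, so the larger number there is partly given by that choice. The medians are over different sets of peaks and do not compare the same sites. On chromosome 4, 3050035 to 3091153 held 4 control and 11 MICAL1-FL peaks, 1 and 6 of them strong, with median depths of 60 and 15. The control peak at 3089562 was 93 deep over a background of 56.0, and the MICAL1-FL peak at 3089558 was 80 deep over 36.9. The peak near 3064273 was 41 and 23 deep. Outside that stretch a strong MICAL1-FL peak lay at 4061601 in the gene Sdr16c6, 10 deep over a background of 1.62, with no overlapping control peak. On chromosome 17, 3006824 to 3082407, which includes another pseudogene of the same family, Pisd-ps2, held 5 and 15 peaks, 1 and 9 of them strong, with median depths of 43 and 23. The peak near 3081785 had a depth of 43 and 36 over backgrounds of 26.4 and 11.5, and that near 3012946 a depth of 85 and 50 over 66.6 and 23.8. The strong control peak there was weaker in MICAL1-FL: that at 3080242 was 20 deep in the control (q = 0.000809) and 10 deep in MICAL1-FL (q = 1). On chromosome 16, 3114711 to 3351918 held 9 and 16 peaks, 2 and 4 of them strong, and its first peak was 126 and 98 deep.

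Single strong peaks stood on other autosomes. On chromosome 18 the peak at 3005732 to 3006522 was 140 deep over a background of 74.0 in the control. Its MICAL1-FL counterpart at 3005666 to 3006480 was 152 deep over 53.4, the deepest proximal peak of either list outside chromosome 9. On chromosome 13 a peak at 3373011 was 114 deep in the control, with a fold of 1.30 and q = 1. In MICAL1-FL the peak at 3372822 was 106 deep, with a fold of 2.74, and was strong. A peak on chromosome 6 lay at 4923836, near the far limit, inside Ppp1r9a. This gene encodes neurabin, an actin-binding scaffold of dendritic spines. It was 51 deep over 15.3 in the control and 52 deep over 21.5 in MICAL1-FL, strong in both, with the higher background in MICAL1-FL. On chromosome 10 the peak at 3249986 was 12 deep over 3.24 in the control, and that at 3249819 was 15 deep over 1.62 in MICAL1-FL, a fold of 6.11. The strong peak that the control had alone lay at 4087523 on chromosome 7, in the noncoding RNA gene 9430041J12Rik, and was 10 deep.

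Strong peaks of the control nearly all had a counterpart in the other list, and those of MICAL1-FL often did not reach q under 0.05 in the control. Of the 12 control peaks outside chromosome 9, 11 (91.7%, 61.5 to 99.8) overlapped a MICAL1-FL peak and 9 (42.8 to 94.5%) a strong one, where 38.4% and 12.9% of strong control peaks in the rest did. Of the 41 in MICAL1-FL, 23 (56.1%, 39.7 to 71.5) overlapped a control peak and 8 (19.5%, 8.82 to 34.9) a strong one, where 40.2% and 16.7% did. The last of these shares was thus near its value elsewhere. Of those 23, 17 were shallower than the deepest control peak they overlapped and 6 were deeper. The 18 with no control peak were 10 to 71 fragments deep, with a median of 18.5, over backgrounds of 1.62 to 39.2. Where both lists had a peak, the MICAL1-FL peak was thus more often the shallower.

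Pairs of peaks with summits within 250 bp of each other showed the same split between depth and background. Outside chromosome 9, 16 pairs in the span had over 5 background fragments in both lists. Their median log2 ratio, MICAL1-FL over control, was -0.23 for depth, with 14 of 16 below 0, and -0.85 for background, with 15 of 16 below 0. For the fold it was 0.66. The 15 such pairs of chromosome 9 had medians of -0.0020 for depth, -0.61 for background and 0.60 for the fold. The 72 such pairs in the rest of the autosomes had -0.22, -0.49 and 0.22. Outside chromosome 9 the medians for depth were nearly equal in the span and the rest, and that for background was lower in the span. Over both whole lists, backgrounds above the lowest were best described by steps of 0.462 in the control and 0.384 in MICAL1-FL, a log2 ratio of -0.27, with 65.8% and 57.4% of them on a step. Over all 4830 pairs in the rest, most of them near the lowest background, the median log2 ratio of background was -0.0046. The only input sample is titled as from control neurons, so no input of MICAL1-FL neurons stands beside these backgrounds. The part of the lower background in the larger number of strong MICAL1-FL peaks was not tested, and folds are not read as a change in ATRX.

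**Figure D4:**
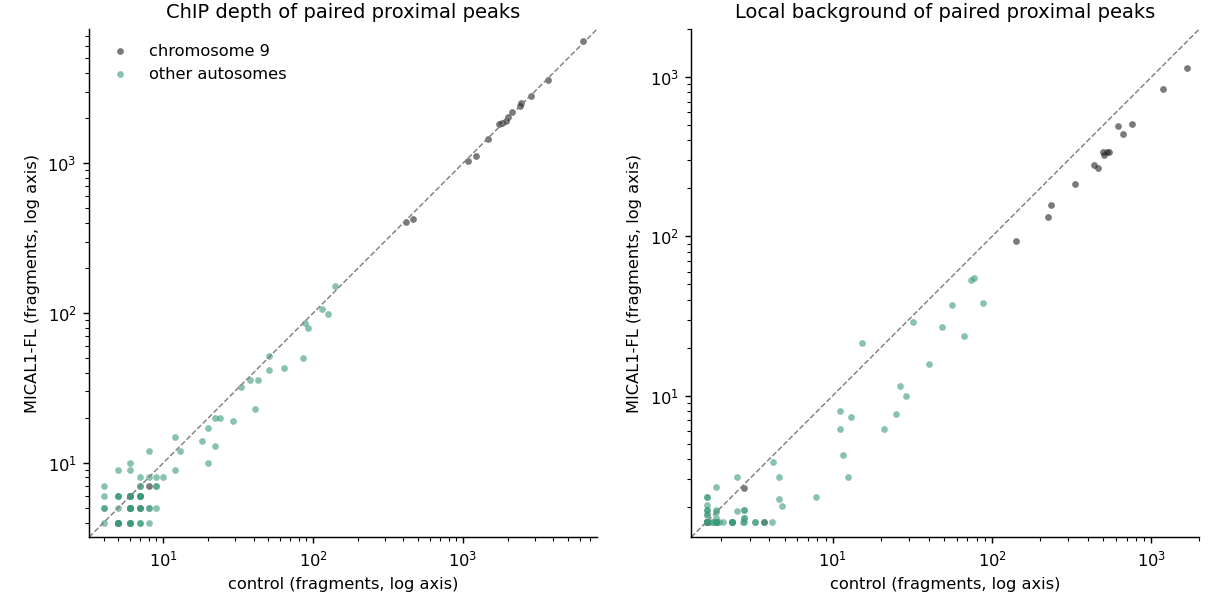
Each point is a pair of peaks in the span with summits within 250 bp, control on the horizontal and MICAL1-FL on the vertical axis, for ChIP depth and for local background in fragments, on log axes with the line of equality. Depths lie near the line and high backgrounds below it, apart from the pair in Ppp1r9a, with medians of -0.23 and -0.85 on the log2 scale for the 16 pairs outside chromosome 9 with over 5 background fragments.

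Peaks in the span overlapped a peak of the other list more often than in the autosomes as a whole, and the excess was among deep peaks. Of the control peaks 151 (10.2%, 8.68 to 11.8) overlapped a MICAL1-FL peak, where 6.85% of all autosomal peaks did. Of the MICAL1-FL peaks 135 (9.92%, 8.38 to 11.6) overlapped a control peak, where 7.23% did. Without chromosome 9 the shares were 8.83% (7.38 to 10.4) and 9.03% (7.52 to 10.7). Among peaks of 9 or more fragments the shares were 72.6% in the span for the control, 65.7% without chromosome 9 and 24.4% in the rest. For MICAL1-FL they were 49.5%, 40.9% and 28.6%. Among those of 5 fragments the shares, chromosome 9 included, were 3.71% against 5.61% and 4.96% against 6.22%. By distance, 21.6% and 17.6% were shared in the first 500 kb, or 16.0% and 13.8% without chromosome 9, 4.76% and 4.99% in the next, and 9.31% and 10.4% in the last before 5 Mb. At this commonest depth the share in the span was thus not above that elsewhere.

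Genes lay in the span at a higher density than in the rest of the autosomes, with 11.4 against 8.51 protein-coding gene starts per Mb. Of 422 protein-coding genes within it, 253 (60.0%) had a control peak within 5 kb, where 66.7% of all autosomal genes had one. For MICAL1-FL it was 252 (59.7%), where 64% had one. Both lists had a peak at 186 genes (44.1%, against 50.8% elsewhere), and 103 genes had none. Genes in the span were slightly shorter, with a median of 15.7 kb against 17.6 kb, and the part of length in these shares was not tested. Summits fell inside a protein-coding gene for 42.4% of control and 44.7% of MICAL1-FL peaks, against 43.2% and 42.4% in the rest.

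The genes with the most peaks in both lists were mostly long ones. Frmd4a on chromosome 2, a scaffold of cell polarity, had 48 peaks in the control and 46 with MICAL1-FL over its 596 kb. Xkr4, of the XK family of membrane proteins, had 24 and 33, and Gucy1a2, a subunit of soluble guanylate cyclase, had 26 and 17. The estrogen receptor gene Esr1 had 20 and 16, the Rac exchange factor gene Tiam2 had 15 and 16, and the kinase genes Cdk14 and Cdk6 had 13 and 14, and 13 and 12. Plekhg1 had 13 in each list, and Mthfd1l had 11 and 10. Per 100 kb these came to 7.92 and 7.59 for Frmd4a and 2.22 and 2.39 for Cdk14, which runs past the 5 Mb limit. None had a strong peak, whereas Sfi1 reached 18.4 and 28.2 per 100 kb.

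The genes with the largest differences in number between the lists all had intervals of the ratio that include 1. Gria4, which encodes an AMPA-type glutamate receptor subunit, had 9 peaks in the control and 20 with MICAL1-FL, for a ratio of 2.22 (0.967 to 5.54). Dtnb, which encodes the dystrophin-associated protein beta-dystrobrevin, had 2 and 9, with an interval of the ratio of 0.931 to 42.8. Ppp1r14c, a protein phosphatase inhibitor gene, had 5 and 11. In the other direction Oxct1, an enzyme gene of ketone body use, had 8 and 2, the myristoyltransferase gene Nmt2 had 6 and 1, and the photoreceptor gene Rp1 had 7 and 2. Cenpo, which encodes a centromere protein, had 5 and 0. These genes were chosen for their difference, so these values are a description.

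Several genes of heterochromatin itself lie in the span, and none had a strong peak in either list. Strong peaks overlapped only the protein-coding genes Sfi1, Ppp1r9a, Akap9 and Sdr16c6, so their absence here is not particular to heterochromatin genes. Suv39h2, which encodes a histone H3 methyltransferase of pericentromeres, had 1 peak in each list, the control one at its promoter with 5 fragments. Kmt5b, a histone H4 methyltransferase gene, had 0 and 3, including a MICAL1-FL peak of 6 fragments at its promoter. The DNA methyltransferase gene Dnmt3a had 12 and 8, with a control peak of 7 fragments at a promoter. Morc2a and Tasor2, genes linked to the silencing complex HUSH, had 1 and 2, and 0 and 2. The Polycomb-associated gene Asxl2 had 1 and 3.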

How the data were processed

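ATRX-bound DNA was measured by ChIP-seq against input DNA, per the labels' protocols, in 1 control and 1 MICAL1-FL library. Titles gave the groups. The only input sample is titled as input of control neurons, and none is titled as input of MICAL1-FL neurons. The input sample was not analysed here. The MICAL1-FL list has peak identifiers that begin with TBC_M2, so each MICAL1-FL value rests on its title.

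The submitters' processing notes list MACS 1.4.2, Bowtie 1.3.0, ChIPseeker 1.26.2 and SAMtools 1.9 without a role or order. Not given in the sources used here were the genome build, the calling threshold and the program that wrote the lists. There was 1 deposited list per library. The deposited score is the whole part of 10 times the −log10 p. The fold of a peak is the authors' ratio over local background, and −log10 p-value and q-value are the authors' too. They describe and rank peaks within a list only.

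Depth and background were recovered by reading fold as (pileup + 1)/(background + 1) and p as a Poisson tail, an inference that no label states. The lowest background was 1.62 in both lists. Sequencing depth per library is unknown. Coordinates are 1-based. Intervals are at 95%, from the exact conditional binomial for ratios and by Clopper-Pearson for shares. Overlap means at least 1 shared bp. The background of a window count is every 2 Mb window from 5 Mb onward. Genes were those of GRCm38.p6, with 5 kb on both sides, and promoters those of RefSeq. Exons, introns and UTRs could not be told from these tables.

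Named autosomes were the 3 highest and 3 lowest density ratios in the control, those lower in both lists and chromosome 9. Named peaks came from the 10 strongest per list, the 10 strongest overlapping pairs and all with q under 0.05. Named genes were the 10 with most peaks in both lists, up to 5 with the largest difference each way, those with a strong peak, and the 5 longest with none, of which 1 is not reported here. The heterochromatin genes, the stretches and the promoter genes were chosen after their values were seen. Members and lists were chosen with earlier results of these data known. Added after seeing the data were the common p of 1e-06, merging of peaks up to 1 kb apart, leaving out autosomes from counts of strong or deep peaks, and background minimums for pairs. Alternatives of threshold, overlap, span and chromosomes stand in the closing section. Steps were tested on simulated data. Python 3.11.15, numpy 2.4.6, pandas 2.3.3, scipy 1.17.1 and matplotlib 3.10.9 were used.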

Additional observations from a re-analysis of the deposited data

How the results depend on the processing

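Of 228 alternatives over 8 results, 179 left the value within its spread or interval, 37 moved it outside and 12 reversed its direction. Most of the 228 left out a single autosome, which for most autosomes can change a pooled value only a little. The count of 179 is therefore not a measure of how firm the results are. The lower density turned to a higher one when strong peaks alone were counted. The ratio became 6.60 in the control and 14.1 in MICAL1-FL for q under 0.05, 23.5 and 32.4 for q of 0.001 or less, and 3.01 and 4.63 for 9 or more fragments. These hold the chromosome 9 cluster. Without chromosome 9 they were 2.24 and 10.7, 4.80 and 19.3, and 2.22 and 4.13, settings added after seeing the data. With the span ending at 4, 6 or 10 Mb the control ratio was 0.801, 0.898 and 0.947. For MICAL1-FL it was 0.874 at 6 Mb, 0.946 at 10 Mb and 0.918 for covered bases.

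The MICAL1-FL to control ratio of the span over that of the rest moved to 2.14 for q under 0.05, 1.54 for 9 or more fragments and 1.05 for covered bases. For q of 0.001 or less it was 1.38, with an interval of 0.747 to 2.55 that includes 1. Without chromosome 9 it was 4.81 for q under 0.05 and 4.66 for p of 1e-06 or less.

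The shared share of control peaks was 4.38% for an overlap of at least 50% of each peak, 6.46% for summits within 250 bp and 18.7% for peaks up to 1 kb apart. It was 97.3% for q under 0.05, 100% for q of 0.001 or less, and 13.0%, 8.50% and 7.85% for spans ending at 4, 6 and 10 Mb. For MICAL1-FL these were 4.78%, 7.05%, 19.9%, 68.4% and 89.2%, and 8.12% for 10 Mb.

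The strong share of control peaks was 15.0% at p of 0.001 or less, 5.01%, 1.66% and 0.863% for spans ending at 4, 6 and 10 Mb, and 0.868% without chromosome 9. For MICAL1-FL it was 2.72% at q of 0.001 or less, 16.2% at p of 0.001 or less, and 8.21%, 2.81% and 1.30% for these spans.

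Leaving out each autosome in turn gave density ratios of 0.826 to 0.866 in the control and 0.797 to 0.843 in MICAL1-FL, and 0.949 to 0.983 for the ratio between lists. Shared shares ran from 8.83% to 10.7% and from 9.03% to 10.4%. Strong shares ran from 0.868% to 2.70% and from 3.22% to 4.48%, the lowest of each without chromosome 9. The ratio of strong peaks without chromosome 9 ran from 2.91 to 3.86. With chromosomes 4, 11 and 17 left out together as well, it was 2.2 (0.705 to 8.08), an interval that includes 1.

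No paired analysis was possible because each condition has 1 library. Depth limits these results: peaks had a median depth of 5 fragments, and no replicate shows how far the values vary between cultures.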

Other observations

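Gene families in the span had these values. Neither of the 2 olfactory receptor genes had a peak in either list, where 18.1% of such genes elsewhere had a control and 14.4% a MICAL1-FL peak. All 3 vomeronasal receptor genes had a control peak and 1 had a MICAL1-FL peak, where 13.8% and 11.8% of such genes elsewhere had one. Of 6 zinc finger genes, 4 had a control and 5 a MICAL1-FL peak, or 66.7% and 83.3%, against 69.5% and 60.5% elsewhere. Of 41 predicted genes, 21 and 19 had one, or 51.2% and 46.3%, against 54.5% and 49.8% elsewhere. The longest genes of the span with no peak in either list within 5 kb included Mroh2b, the RNA-binding protein gene Elavl1, the transmembrane AMPA receptor regulatory gene Cacng7 and the collagen gene Col1a2, of 35.9 to 64.0 kb. Cacng8, another AMPA receptor regulatory gene, had 3 peaks in each list.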
